A study of Mus musculus with 102 samples.

Results

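ES-specific low-methylated regions (LMRs) are stretches of reduced CpG methylation that carry this name in the study's list of regions. The list gives no definition of it, and ES is read here as embryonic stem cell. The 8 regions so labelled among the 88 listed regions, each 400 bases long, were taken with every measured CpG inside them, which gave 64 of 405 CpGs in 6 regions in the amplicon bisulfite assay. In the SureSelect assay, which captures targeted DNA with probes before bisulfite sequencing, 180 of 2177608 CpGs lay in or within 2 kb of 7 of the regions, 70 of them inside 5 regions and 110 in the flanks. Which CpGs belong to a region was set by its label and position alone.

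All samples were C57BL6/J mouse embryonic stem cells with loxP sites at the catalytic exons of Dnmt3a and Dnmt3b, also in the controls. Wild-type cells had all 3 Tet genes, whereas TTKO cells were a single clone of the same line in which CRISPR had disrupted Tet1, Tet2 and Tet3, so that an effect of TET loss and a property of that clone cannot be told apart. In each line the amplicon samples were non-transduced cells at day 0 and cells transduced with Cre protein, which deletes the catalytic exons, or mock transduced with buffer, and sampled on day 4, day 8, day 10, day 13, day 17 and day 29, with 3 replicates per group and 78 samples in all. The 24 SureSelect samples were TTKO cells at day 0 and on the same days after Cre and wild-type cells at day 0, and the deposited columns join the 3 replicates of each, so that this assay has no replicates here. In the amplicon assay the total per sample was 1892003 to 4706318 reads, and the median coverage of the 64 CpGs was 1653.5 to 18653.5 reads per sample. No level was available in 1 sample each for the Gsx1-side region (TTKO mock day 13), the Cacng7 region (wild-type Cre day 17) and the Calhm2 region (wild-type Cre day 8).

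A CpG methylation level is the balance of writing and removal. DNMT3A and DNMT3B add methyl groups to unmethylated sites, DNMT1 copies the pattern to the daughter strand at replication, and TET enzymes oxidise methylated cytosine, which leads to its loss. LMRs are typically distal regulatory elements, where bound transcription factors go along with reduced methylation, and a cell-type-specific LMR is a mark of an element used in that cell type.

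In mm9, 3 of the regions overlapped coding exons. These were chr7:133835912-133836311 in Slx1b, a subunit of a structure-specific endonuclease, which also covered annotated UTR; chr16:43609587-43609986 in Zbtb20, a zinc-finger transcriptional repressor; and chr19:47209871-47210270 in Calhm2, of the calcium homeostasis modulator family of channels. Another 2 lay in introns, chr7:3349864-3350263 in Cacng7, an auxiliary subunit of AMPA-type glutamate receptors, and chr3:9601299-9601698 in Zfp704, a zinc-finger protein. The remaining 3 were intergenic. Of these, chr5:147970780-147971179 was 29093 bases from Gsx1, a homeobox transcription factor, chr11:97774437-97774836 was 9716 bases from Plxdc1, a plexin domain protein, and chr1:119100615-119101014 was 622012 bases from Cntnap5a and held no CpG measured in either assay. The Plxdc1-side region was measured only by SureSelect. CpG density ranged from 1.75 per 100 bases in the Gsx1-side region to 6.5 in the Slx1b region.

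The measured stretches of 4 regions are shown because they span the responses described below, from strong gain of methylation without TET (Zfp704, Calhm2) through near-complete loss without DNMT3 (Cacng7) to high methylation in stem cells (Zbtb20). They are the mm9 plus strand, and capitals mark the CpGs measured in the amplicon assay.
Zfp704, chr3:9601415-9601641: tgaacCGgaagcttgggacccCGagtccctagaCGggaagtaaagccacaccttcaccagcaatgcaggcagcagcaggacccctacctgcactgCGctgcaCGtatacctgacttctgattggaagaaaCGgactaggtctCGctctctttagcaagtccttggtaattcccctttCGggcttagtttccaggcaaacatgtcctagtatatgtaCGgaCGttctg
Calhm2, chr19:47210063-47210249: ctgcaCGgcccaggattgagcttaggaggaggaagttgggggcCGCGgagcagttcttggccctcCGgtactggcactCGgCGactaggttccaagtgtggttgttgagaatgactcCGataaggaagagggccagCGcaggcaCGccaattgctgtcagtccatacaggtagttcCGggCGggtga
Cacng7, chr7:3349935-3350195: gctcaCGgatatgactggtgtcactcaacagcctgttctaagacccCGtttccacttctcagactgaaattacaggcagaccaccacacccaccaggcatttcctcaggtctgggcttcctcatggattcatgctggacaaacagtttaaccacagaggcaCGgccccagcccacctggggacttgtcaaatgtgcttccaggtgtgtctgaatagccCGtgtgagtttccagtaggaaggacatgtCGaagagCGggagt
Zbtb20, chr16:43609649-43609840: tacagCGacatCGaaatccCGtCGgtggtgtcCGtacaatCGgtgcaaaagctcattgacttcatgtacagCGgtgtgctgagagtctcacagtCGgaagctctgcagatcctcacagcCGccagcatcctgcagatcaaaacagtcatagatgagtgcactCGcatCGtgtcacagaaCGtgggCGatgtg
Single CpGs varied in spacing within these stretches. In Cacng7 the nearest other CpG was 7 to 57 bases away, and the Zbtb20 stretch began with a cluster of 6 CpGs.

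A search of the 400-base windows on both strands for the letters of known motifs gave few matches. The SOX core CATTGT and the octamer ATGCAAA were in 0 of the 8 regions, against 25% and 12.5% of the other 80 listed regions. The KLF motif GGGTGTG was in 3 regions (Gsx1 side, Plxdc1 side and Cacng7), against 11.25% of the others. The ESRRB motif AAGGTCA and the E-box CACGTG were both in the Slx1b region, against 8.75% and 10% of the others. The TCF motif CTTTGAT was in the Plxdc1-side region, against 3.75%, and the GC box GGGCGG was in the Slx1b and Calhm2 regions, against 22.5%. These matches are letters in a window and not measured binding.

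The first comparison asks how methylation at steady state differs without TET. At day 0, 5 of the 6 regions were lowly methylated in wild-type cells, with means of 10.2% to 22.6%, and all of these means were higher in TTKO cells. The Zfp704 intron changed most. Its level was 11.2%, 13.0% and 18.1% in the wild-type replicates and 62.8%, 57.6% and 53.4% in TTKO cells, a rise of 43.8 percentage points ± 5.90 (SD, n = 3). The Calhm2 exon had 21.7%, 21.6% and 24.5% in wild-type cells and 50.4%, 51.5% and 49.0% in TTKO cells, and the Cacng7 intron 10.6%, 7.33% and 12.5% against 34.9%, 35.2% and 33.9%. The lowest TTKO replicate of each of these regions was above the highest wild-type replicate.

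The Gsx1-side region moved less, from 16.2% ± 2.99 to 32.3% ± 3.71 (SD, n = 3), without overlap of the replicates. The Slx1b exon was the exception. It had 20.4%, 13.1% and 9.21% in wild-type cells and 19.4%, 21.5% and 23.3% in TTKO cells, so the replicates overlapped (exact permutation test, two-sided, p = 0.2). For the other 5 regions the exact permutation test gave p = 0.1, the smallest value that 3 against 3 samples allow, so no region mean could pass 0.05 in this design. Non-overlapping higher means were common, at 82.8% of all 64 amplicon regions.

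**Figure D1:**
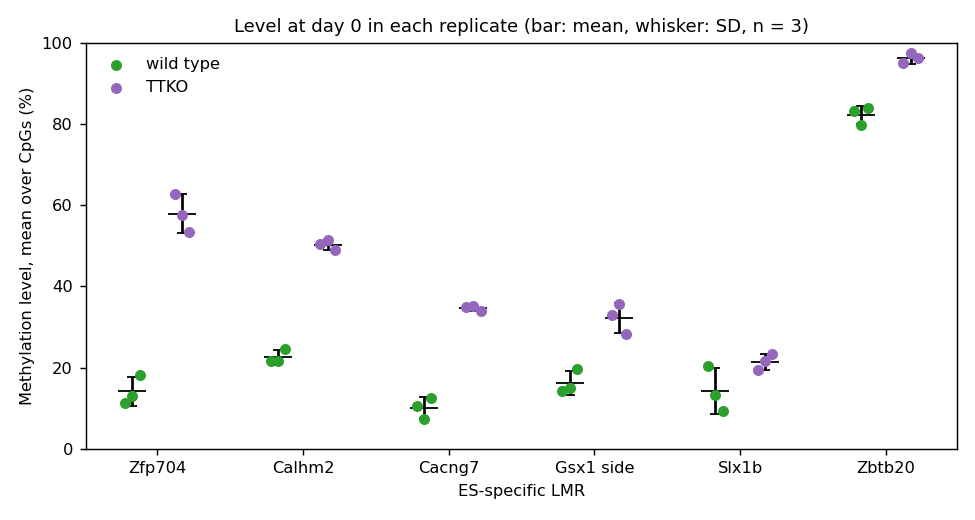
Mean methylation level (%) of the CpGs in each of the 6 ES-specific LMRs measured by amplicons at day 0, with 1 point per replicate, a bar for the mean and a whisker for the SD (n = 3). TTKO replicates lie above all wild-type replicates except at Slx1b, and the Zbtb20 region is high in both lines.

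The Zbtb20 region went against its label. Its level in wild-type cells was 83.1%, 79.7% and 84.0%, within the range of 72.4% to 86.7% over 6 of the 7 regions of the amplicon set listed as NP-specific LMRs, another class of which the list gives only the name. In TTKO cells it was 94.9%, 97.6% and 96.1%. It is therefore described apart below, and the mean at day 0 and the main counts are also given without its 13 CpGs.

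Counted by CpG, 56 of the 64 were higher in TTKO cells and 0 were lower (quasi-binomial model, adjusted p under 0.05), beside a background of 59.3% of all 405 amplicon CpGs called higher. Without Zbtb20 43 of 51 were higher. All CpGs of Zbtb20 (13), Gsx1 side (4), Cacng7 (6), Zfp704 (10) and Calhm2 (11) were called, against 12 of 20 in Slx1b. The CpG with the largest difference was chr3:9601517-9601518 in the Zfp704 intron, at 14.4% ± 5.60 in wild-type and 82.8% ± 4.27 in TTKO cells (SD, n = 3; quasi-binomial adjusted p = 1.42e-05). The smallest was chr7:133836117-133836118 in Slx1b, at 9.97% ± 2.49 and 8.31% ± 2.24 (SD, n = 3; quasi-binomial adjusted p = 0.641).

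Over all 64 CpGs the mean rose from 29.2% to 49.2%, by 19.96 percentage points ± 1.64, and without Zbtb20 from 15.7% to 37.2%. The rise was smaller than that of the other constitutive LMRs, those listed as constitutive without a CTCF or REST label (12 regions, 59 CpGs). Those rose by 40.9 points, a difference of -20.96 points for the ES-specific LMRs (± 1.63, SD, n = 3; exact permutation p = 0.1, without overlap). When the constitutive LMRs labelled for the factors CTCF and REST were included (180 CpGs), that class rose by 20.6 points and the difference from the ES-specific LMRs was -0.63 points ± 1.59 (exact permutation p = 0.6, n = 3). Against the NP-specific LMRs, which rose by 10.4 points, the ES-specific LMRs rose by 9.60 points more (± 1.67, exact permutation p = 0.1, n = 3, without overlap). The NP-specific LMRs started at 80.4% and had less room to rise. On the log odds scale the median log2 odds ratio per CpG was 1.78 in the ES-specific, 3.42 in the other constitutive and 1.33 in the NP-specific LMRs. It was 0.71 in the constitutive LMRs labelled for CTCF and 0.47 in those labelled for REST.

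Levels differed strongly between CpGs of a single region. In the Zfp704 intron the TTKO levels ran from 30.3% to 82.8%, whereas the same CpGs spanned 8.03% to 21.4% in wild-type cells. The highest were the neighbours at 9601510 and 9601517, at 80.2% and 82.8%. In the Calhm2 exon TTKO levels ran from 31.1% to 84.6%, with the highest at chr19:47210128-47210129, which was at 23.5% ± 1.63 in wild-type cells (SD, n = 3; quasi-binomial adjusted p = 1.76e-07). CpGs of a region share their molecules and are not independent.

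**Figure D2:**
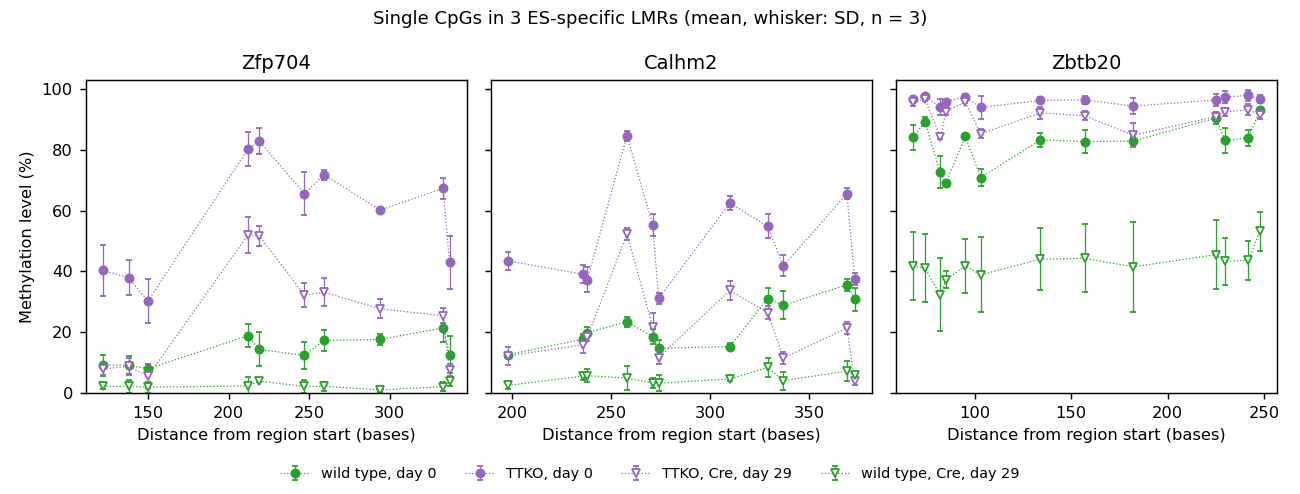
Level (%) of single amplicon CpGs against their distance in bases from the region start in the Zfp704, Calhm2 and Zbtb20 regions, as mean and SD over 3 replicates of wild-type and TTKO cells at day 0 and 29 days after Cre. In Zfp704 and Calhm2 the wild-type levels are low throughout, and the TTKO levels range from 30.3% to 84.6% at day 0.

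Loss of methylation after deletion of Dnmt3a and Dnmt3b was followed against mock-treated cells of the same day. In TTKO cells, where TET cannot remove methylation, the Slx1b, Gsx1-side and Cacng7 regions were nearly emptied by day 29, whereas Zfp704 and Calhm2 kept a large part and Zbtb20 nearly all. The Cacng7 intron was at 3.14%, 3.31% and 4.34% after Cre and at 35.9%, 33.4% and 36.1% after mock. The Slx1b exon had 2.70%, 2.98% and 3.05% against 17.9%, 16.3% and 15.8%, and the Gsx1-side region 3.81%, 3.93% and 3.38% against 22.1%, 23.9% and 21.0%. As a share of the mock level, 10.2% remained in Cacng7, 16.6% in the Gsx1-side region and 17.5% ± 1.1 in Slx1b. Each share divides the Cre replicates by the mean of the mock replicates, so its SD leaves out the spread of the mock replicates.

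In the Zfp704 intron the Cre samples stayed at 23.3%, 24.7% and 27.6%, beside 59.1%, 51.7% and 57.2% after mock, so that 45.1% ± 3.9 (SD, n = 3) of the mock level remained. The Calhm2 exon held 21.6%, 19.5% and 21.5% against 47.3%, 47.2% and 49.3%, or 43.5% ± 2.5 of the mock level. The Zbtb20 exon was at 91.4%, 91.4% and 90.9% against 95.9%, 95.7% and 96.9%, or 94.9% ± 0.337. In all 6 regions the Cre replicates lay below the mock replicates (exact permutation p = 0.1 each, n = 3), as they did in 96.7% of 61 amplicon regions.

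The loss was gradual. In TTKO cells after Cre the Zfp704 mean passed from 57.9% before transduction through 56.3% on day 4, 47.5% on day 8, 39.7% on day 13 and 32.1% on day 17 to 25.2% on day 29. At day 4 the Cre replicates lay below the mock replicates in 2 of the 6 regions, beside 32.7% of 55 amplicon regions. The Gsx1-side region was at 18.6% ± 2.59 after Cre and 31.6% ± 3.27 after mock, and the Slx1b exon at 18.6% ± 0.433 and 26.1% ± 3.57 (SD, n = 3). Counted by CpG with the quasi-binomial model, 0 of 64 were called lower on day 4 (22 at an unadjusted p under 0.05, 0 by limma), 26 on day 8, 51 on day 10, 33 of 60 on day 13, 49 on day 17 and 59 on day 29. The background over all amplicon CpGs was 0%, 17.6%, 43.8%, 33.7%, 54.9% and 66.7% at these days. At day 8 the count fell to 1, 2 and 2 without Cre replicate 1, 2 and 3 and to 0 with limma, at day 10 it was 25 without Cre replicate 3, and at day 13 it was 20 with limma. None of the 64 was called higher at any day. Without Zbtb20 50 of 51 were called lower at day 29. At day 29 the CpGs not called were 4 of 13 in Zbtb20 and 1 of 20 in Slx1b.

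Among the 24 CpGs with a TTKO level of at least 50% before transduction, the largest relative loss was at chr19:47210239-47210240 in Calhm2. It went from 65.5% ± 1.84 at day 0 to 21.4% ± 2.02 at day 29 after Cre, a loss of 67.3% (quasi-binomial adjusted p = 1.27e-05 against mock, n = 3). The smallest was at chr16:43609660-43609661 in Zbtb20, from 97.6% ± 0.569 to 96.6% ± 0.514, a loss of 1.03% (adjusted p = 0.246 against mock, quasi-binomial, n = 3). Single CpGs of a region kept different shares. In Calhm2 the CpG at 47210243, only 4 bases further on, kept 10.7% of its mock level, whereas the CpG at 47210128 kept 65.8%. In Zfp704 the CpGs at 9601510 and 9601517 kept 66.3% and 64.6%, and the CpG at 9601448 kept 18.0%.

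With TET present the same deletion gave another order. In wild-type cells at day 29 the Zfp704 intron was at 3.40%, 1.57% and 2.32% after Cre and at 8.40%, 12.4% and 17.4% after mock, and the Calhm2 exon at 4.55%, 7.04% and 3.61% against a mock mean of 24.6% ± 1.52 (SD, n = 3). The Zbtb20 exon lost most in percentage points. It was at 42.3%, 33.1% and 51.1% after Cre and at 80.8%, 85.7% and 85.3% after mock. Again all 6 regions were lower without overlap, beside 77.4% of 62 amplicon regions.

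As a share of mock, 50.3% ± 10.7 remained in Zbtb20, 20.6% ± 7.2 in Calhm2, 19.1% ± 7.2 in Zfp704, 15.8% in Cacng7 and 25.8% in the Gsx1-side region (SD, n = 3). Here too the SD holds the spread of the Cre replicates only. Slx1b had the largest spread, with 10.3%, 7.99% and 4.21% after Cre, and was at 53.4% of its mock level on average, with the largest SD of the 6 regions. Its Cre mean had been lower before, at 4.45% on day 13 and 3.71% on day 17, against 7.52% on day 29. Of the 11 regions that were at least 70% methylated in wild-type cells at day 0 and had a share in both lines, Zbtb20 had the widest gap between lines, 44.6 percentage points, and the next was an NP-specific LMR at 36.7. This ranking was made after the values were seen and was not tested.

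In the wild-type CpG counts 0 of 64 were called lower on day 4 (8 at an unadjusted p under 0.05, 0 by limma), 29 of 53 on day 8, 22 on day 10, 35 on day 13, 39 of 58 on day 17 and 38 on day 29. The background was 0%, 38.3%, 25.2%, 32.4%, 51.4% and 51.8%. At day 10 the count was 7 with limma, 13 without Cre replicate 1, and 11, 10 and 10 without mock replicate 1, 2 and 3. At day 13 it was 12 with limma, 21 without Cre replicate 1, and 18, 20 and 21 without mock replicate 1, 2 and 3. At day 29 the count without Zbtb20 was 25 of 51. All CpGs of Zbtb20 and Calhm2 were called then, 6 of 10 in Zfp704, 3 of 6 in Cacng7, 1 of 4 at the Gsx1 side and 4 of 20 in Slx1b.

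The difference between the lines in the effect of Cre at day 29 was tested as an interaction on the log odds scale. It was called for 8 of 64 CpGs. In Slx1b 6 CpGs lost more in TTKO cells (median log2 odds ratio of the region -1.68), beside a background of 2.86%, and in Zbtb20 2 CpGs lost less in TTKO cells (median 1.37), beside 3.12%. These 2 were chr16:43609660-43609661 (quasi-binomial adjusted p = 0.0449) and chr16:43609671-43609672 (adjusted p = 0.0231), of which the second was at 92.5% ± 1.18 in TTKO and 37.2% ± 2.80 in wild-type cells after Cre (SD, n = 3). The calls were not stable. They fell to 0 without TTKO Cre replicate 1, TTKO Cre replicate 2 or wild-type mock replicate 3, to 1 without TTKO Cre replicate 3 and to 2 without TTKO mock replicate 1, wild-type Cre replicate 1 or wild-type mock replicate 1, and rose to 16 without wild-type Cre replicate 2 or 3.

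**Figure D3:**
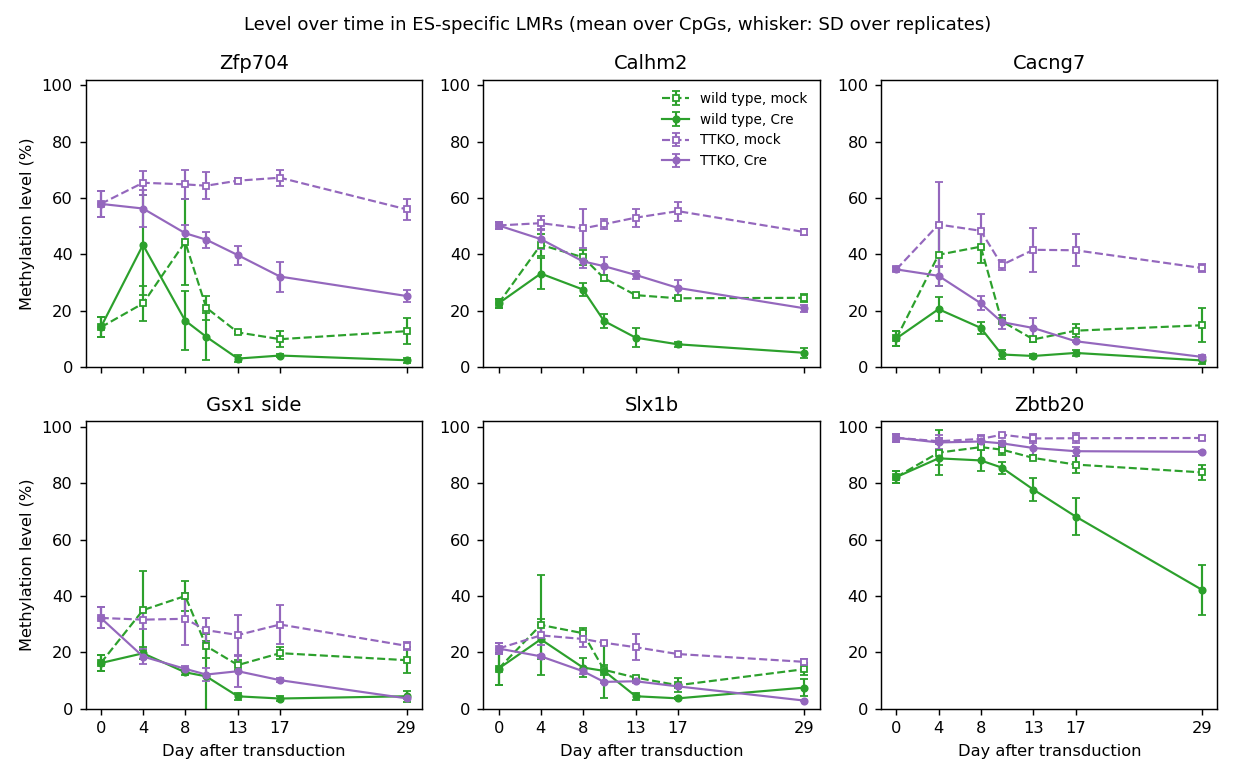
Mean level (%) of the CpGs in each of the 6 regions against days after transduction, for wild-type and TTKO cells after Cre or mock treatment, with whiskers for the SD over replicates (n = 3, or 2 where a sample had no level). TTKO Cre levels fall below TTKO mock levels, to 2.91% in Slx1b and 91.2% in Zbtb20 at day 29, and wild-type mock levels rise at days 4 and 8 before returning.

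The mock-treated wild-type cells were not constant. Over the 64 CpGs their mean was 29.2% ± 1.49 before transduction, 44.7% ± 7.37 on day 4, 47.4% ± 4.08 on day 8, 34.6% on day 10, 29.7% ± 0.199 on day 13 and 30.1% ± 1.60 on day 29 (SD, n = 3). This comparison was added after the means were seen. At day 8 the Cacng7 intron had 38.9%, 49.5% and 39.8%, the Gsx1-side region 36.1%, 46.0% and 38.0%, and the Calhm2 exon 37.0%, 42.1% and 37.9%. The Zfp704 intron had 52.0% and 54.3% in replicates 1 and 2 and 26.9% in replicate 3. All 6 regions were above their day 0 replicates, as were 82.8% of 64 amplicon regions, and 62 of 64 CpGs were called higher, beside 62.5% of 405. By day 29, 0 of 64 were called different from day 0 (4 at an unadjusted p under 0.05, 0 by limma), beside 5.53% called higher of all CpGs.

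In TTKO mock cells 0 of 64 CpGs were called at day 8 (12 at an unadjusted p under 0.05), beside 0.504% called higher of all CpGs. Without mock replicate 2 or 3 there was 1 call, which was lower than at day 0. By region, the Cacng7 intron was without overlap higher, at 48.4% ± 5.78 against 34.7% ± 0.679 at day 0 (SD, n = 3), as were 14.5% of 62 amplicon regions. By day 29 the TTKO mock level was lower in some regions. The Gsx1-side region, at 32.8%, 35.6% and 28.3% on day 0, was at 22.3% ± 1.47 on day 29, and Slx1b, at 21.4% ± 1.97 on day 0, was at 16.7% ± 1.12 (SD, n = 3; exact permutation p = 0.1 for each). Both were lower without overlap, as were 29% of 62 amplicon regions, and the other 4 regions overlapped with their day 0 replicates. Without Zbtb20 the mean of the CpGs was 37.2% on day 0 and 33.7% on day 29. Of the 64 CpGs, 0 were called (19 at an unadjusted p under 0.05, 0 by limma), beside 0% called lower of all CpGs. The shares of the mock level given above for TTKO cells rest on these day 29 levels.

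The change of mock-treated cells from day 0 to day 8 differed between lines at 22 of 64 CpGs, all with a smaller rise in TTKO cells, beside 23.9% of all CpGs. They were 5 each in Slx1b, Zbtb20 and Calhm2, 4 in Cacng7, 3 at the Gsx1 side and 0 in Zfp704. The count was 11 without TTKO day 0 replicate 1 or 3, 14 without TTKO day 0 replicate 2 or wild-type day 0 replicate 3 and 13 without wild-type day 0 replicate 2.

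The wild-type rise at day 8, 18.2 points over the ES-specific LMRs, differed from the 19.2 points of the other constitutive LMRs by -1.05 points ± 3.05 (exact permutation p = 0.7, n = 3). With the CTCF and REST regions included that class rose by 12.4 points, and the difference was 5.73 points ± 3.05, without overlap (exact permutation p = 0.1, n = 3). It exceeded the 11.0 points of the NP-specific LMRs by 7.14 points, without overlap (exact permutation p = 0.1, n = 3), but those started at 80.4% and had less room to rise. On the log odds scale the median rise was 1.57 in the ES-specific and 1.44 in the NP-specific LMRs (log2 odds ratio over 64 and 39 CpGs). Wild-type Cre cells were also above their day 0 mean at day 4 in the 6 regions. In 5 of them the Cre mean was below the mock mean, such as 20.6% ± 4.35 against 39.9% ± 11.0 in Cacng7. The Zfp704 intron was the exception, at 43.4% ± 17.7 after Cre and 22.6% ± 6.29 after mock, and its Cre mean was 16.5% ± 10.6 by day 8 (SD, n = 3). Comparisons of Cre with mock in wild-type cells at days 4 to 10 therefore rest on a mock level that was itself moving.

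Turnover was described by a rate of methylation, k_me, and a rate of demethylation, k_de, both per day. Where both are constant, the level settles at k_me divided by the sum of k_me and k_de, so equal rates give 50%. In TTKO cells k_de is the passive loss through imperfect maintenance at replication. Both rates could be fitted with low noise for 52 of 64 CpGs in TTKO and 57 in wild-type cells.

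The median k_de was 0.0822 per day in TTKO and 0.104 in wild-type cells, and the median k_me was 0.0442 and 0.0302. For the other constitutive LMRs in TTKO cells the medians were 0.0442 for k_de and 0.0947 for k_me (55 of 59 CpGs), and for the NP-specific LMRs 0.00874 and 0.126 (28 of 39). Rates were fitted per CpG from shared samples and the classes were not tested against each other. The order of the lines in these medians was not stable. With no retained alleles k_de was 0.0712 in TTKO and 0.0647 in wild-type cells, the other way round. So was it with an over-dispersion of 0.02, at 0.0861 and 0.0249, but over only 21 TTKO and 11 wild-type CpGs. The CpGs behind these medians differ between lines and settings. The main medians held 3 Zbtb20 CpGs in TTKO and 13 in wild-type cells. Without Zbtb20 the median k_de was 0.0947 and 0.139. Leaving out a replicate put the wild-type k_me above that of TTKO cells, which was then 0.0426 to 0.0492: in wild-type cells it was 0.0537, 0.0674 and 0.0615 without replicate 1, 2 and 3. The wild-type k_de was 0.160 without replicate 2. The wild-type CpGs with low noise were 37 and 36 without replicates 1 and 3.

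The rates spanned a wide range over the regions. In TTKO cells the median k_de was 0.117 per day at the Gsx1 side, 0.115 in Cacng7 and 0.109 in Slx1b. It was 0.0422 in Zfp704, 0.0402 in Calhm2 and 0.00337 in the 3 Zbtb20 CpGs with low noise. These 3 had the lowest TTKO levels of the region at day 0. The other Zbtb20 CpGs were fitted at 0.00107 to 0.00306 per day, without low noise. In wild-type cells Zfp704 and the Gsx1 side were highest, at 0.203 both, followed by Cacng7 at 0.168, Calhm2 at 0.104, Slx1b at 0.0783 and Zbtb20 at 0.0249 (13 CpGs). Median k_me was highest in Cacng7 among TTKO regions, at 0.0822, and in Zbtb20 among wild-type regions, at 0.168.

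Among the amplicon CpGs with low noise, the highest k_de in TTKO cells was at chr5:147970880-147970881 on the Gsx1 side, with a k_de of 0.168 per day, for which methylation would fall by 50% in 4.13 days without renewal. In the SureSelect columns the same CpG was fitted at 0.126, without low noise. The lowest was at chr16:43609689-43609690 in Zbtb20, with 0.0023 per day and 301 days. In wild-type cells 4 CpGs shared the highest value of the grid that was reached, 0.246 per day and 2.82 days, 3 of them in Zfp704, among them chr3:9601436-9601437, and 1 in Slx1b. The lowest was chr16:43609834-43609835 in Zbtb20, at 0.0170 per day and 40.7 days.

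For the 46 CpGs fitted with low noise in both lines at the main settings, k_de was higher in wild-type cells at 36, with a median log2 ratio of wild-type over TTKO of 0.83, and k_me was higher at 5, with a median of -0.69. If k_me were equal in the lines, the day 0 levels of these CpGs alone would give a median log2 ratio of k_de of 1.48. By region this ratio, over all amplicon CpGs, was 0.78 in Slx1b, 1.43 at the Gsx1 side, 1.57 in Calhm2, 2.31 in Cacng7, 2.52 in Zbtb20 and 2.87 in Zfp704. The fitted ratio, over the CpGs with low noise in both lines, had a median of -0.21 in Slx1b (16 CpGs), 0.41 in Cacng7 (3), 0.96 at the Gsx1 side (3), 1.1 in Calhm2 (11), 2.34 in Zfp704 (10) and 3.16 in Zbtb20 (3). All 8 CpGs with a lower wild-type k_de were in Slx1b. Levels and rates share the day 0 samples and are not independent.

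**Figure D4:**
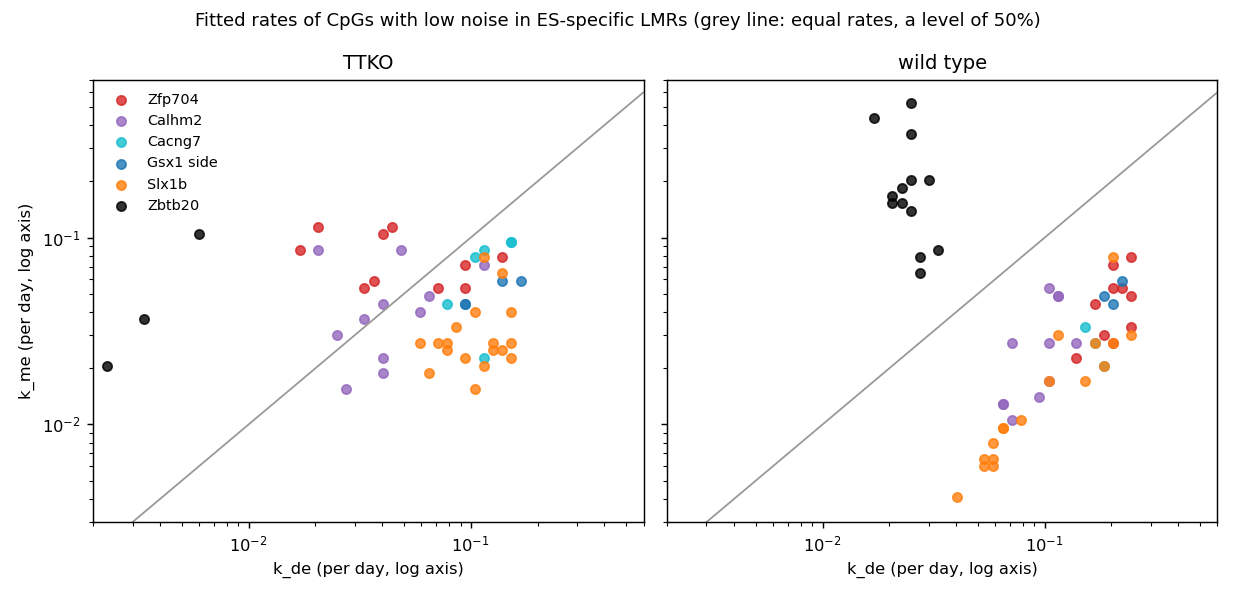
Fitted k_me against k_de per day (both log axes) for the CpGs of ES-specific LMRs with low noise in TTKO cells (52 CpGs) and wild-type cells (57 CpGs), coloured by region, with the grey line at equal rates, a level of 50%. Most CpGs lie below the grey line in both cell lines, and Zbtb20 lies above it. Zfp704 and Calhm2 have CpGs on both sides of it in TTKO cells and lie below it in wild-type cells.

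The SureSelect assay added the flanks and the Plxdc1-side region. Coverage of the 180 CpGs was 50 to 927 reads with a median of 310, and the Fisher tests compare pooled libraries, not conditions. Mean level inside the regions was 13.1% in wild-type, 33.7% in TTKO and 10.8% in TTKO cells 29 days after Cre, beside 23.4%, 35.8% and 19.6% over all captured CpGs. In the flanks it was 31.2%, 50.6% and 24.2%. TTKO cells were called higher at 136 of 180 CpGs and lower at 0, beside a background of 44.7%, and these were 56 of 70 inside and 80 of 110 in the flanks. From day 0 to day 29 after Cre 159 of 180 were called lower and 0 higher, beside 59.3%, and these were 68 of 70 inside and 91 of 110 in the flanks.

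The Plxdc1-side region was lowly methylated in wild-type cells, at 18.4% over its 14 CpGs, and had 42.4% in TTKO cells and 13.6% at day 29. Of these CpGs 10 were called higher without TET and all 14 lower after Cre. Its 20 flanking CpGs had 36.6%, 58.2% and 22.9%. The Zfp704 intron had 8.37%, 46.7% and 15.8% inside and 25.1%, 54.7% and 20.8% in the flank. Calhm2 had 20.8%, 47.5% and 21.3% inside and 27.4%, 50.2% and 21.2% in the flank.

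In wild-type cells Slx1b was low both inside and in its flank of 7 CpGs, whereas in TTKO cells the flank was higher. The values were 6.61%, 16.7% and 2.66% inside and 7.89%, 31.4% and 7.57% in the flank. The Gsx1-side region had 17.8%, 28.7% and 4.17% inside, and its 2 flanking CpGs fell from 57.5% in TTKO cells to 8.95% at day 29. Only flanks were captured for the others. That of Cacng7 was at 14.0%, 19.3% and 8.73%, with 5 of 19 CpGs higher in TTKO cells, and its sides differed. The 15 CpGs at lower coordinates were nearly unmethylated, at 0% to 3.9% in wild-type and 0% to 11.7% in TTKO cells, with 1 call. The 4 at higher coordinates were all called, with means of 59.7% in wild-type cells, 80.8% in TTKO cells and 36.5% at day 29. That of Zbtb20 was high, at 73.8%, 83.9% and 68.5%, with 9 of 14 CpGs higher.

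By distance, the wild-type mean was 13.1% inside, 35.8% at 1 to 500 bases from the border, 47.7% at 501 to 1000, 21.0% at 1001 to 1500 and 21.1% at 1501 to 2000 bases. In TTKO cells it was 33.7%, 54.9%, 66.1%, 39.3% and 41.7%. In bins of 250 bases the wild-type mean was 21.1% at 1 to 250 bases (22 CpGs) and 53.7% at 251 to 500 bases (18 CpGs), so the step at the border was 8.05 points in place of 22.7. The bin at 501 to 1000 bases was high through the Zbtb20 flank, and without it was at 30.9% in wild-type cells, 53.0% in TTKO cells and 19.1% at day 29 (12 CpGs), where it was 37.8% at day 29 with it. With reads pooled, the Wilson 95% interval of the wild-type level inside was 11.6% to 12.4% and that of the nearest flank 34.5% to 36.3%, which covers counting error only. The number of CpGs was 70, 40, 20, 18 and 32, and the outer bins drew on 4 regions. The regions behind the bins are therefore not the same. In the bins of 500 bases the difference of TTKO from wild-type cells was between 18.3 and 20.7 points, and up to 22.1 points without Zbtb20. In the bins of 250 bases it ranged from 14.2 to 22.5 points. The outermost bin was low through the lower flank of Cacng7. Without that region it was at 31.3% in wild-type and 62.6% in TTKO cells (21 CpGs), and the difference of 31.3 points was the largest of the bins without Cacng7, the others being between 18.7 and 21.9 points.

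**Figure D5:**
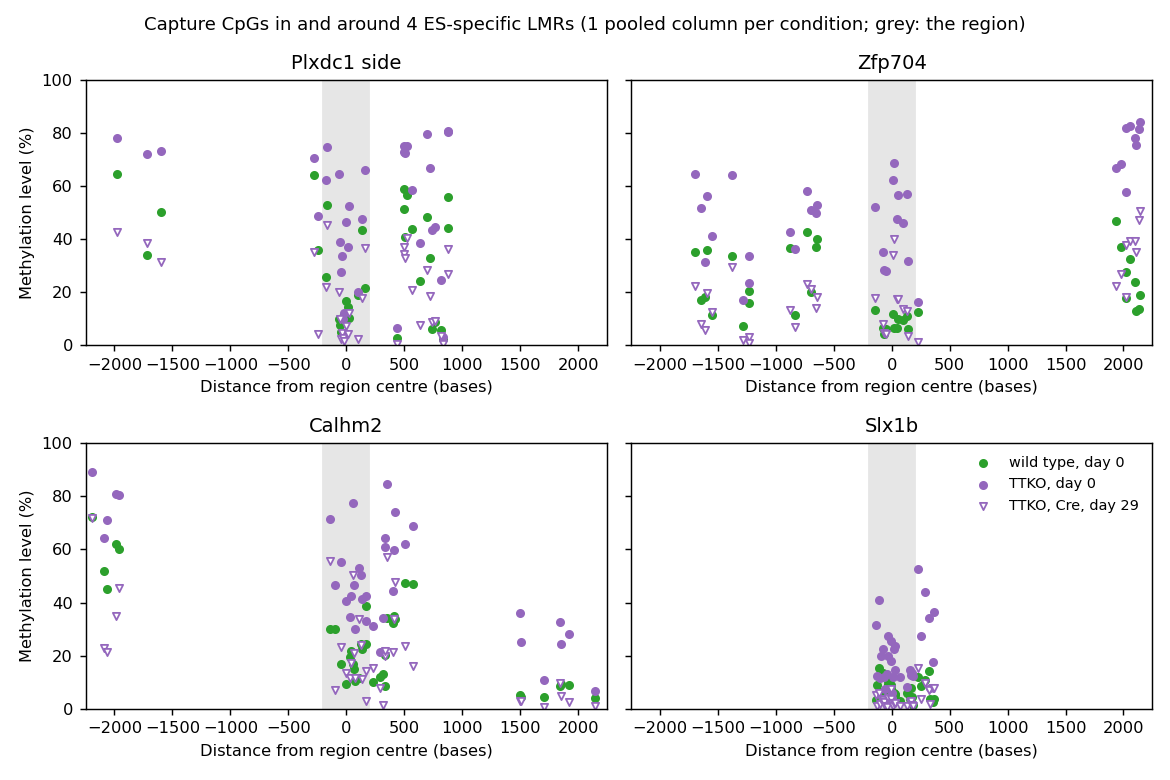
Level (%) of captured CpGs against distance in bases from the region centre for the Plxdc1-side, Zfp704, Calhm2 and Slx1b regions, with the 400-base region in grey and 1 point per CpG from a pooled column of 3 replicates for wild-type day 0, TTKO day 0 and TTKO day 29 after Cre. Wild-type levels inside the grey region are mostly low, with some equally low CpGs further out. Most TTKO day 0 points lie above the wild-type points, both inside the grey region and in the flanks.

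Rates from the SureSelect columns could be fitted with low noise for 57 of 70 CpGs inside and 75 of 110 in the flanks. Median k_de was 0.0783 per day inside and 0.0442 in the flanks, and median k_me was 0.0442 and 0.0861, beside 0.0365 and 0.0712 over the 975457 captured CpGs with low noise. These columns have no replicates. In the 5 regions with both parts, median k_me was higher in the flank in all 5 and median k_de lower in 3. On the Gsx1 side it was 0.0947 in the flank (2 CpGs) and 0.0861 inside, and in Calhm2 0.0486 and 0.0442. For the 45 CpGs measured by both assays, amplicons gave higher means than the capture. These were 16.5% against 10.8% in wild-type cells, 37.5% against 31.2% in TTKO cells and 12.3% against 9.68% at day 29. The correlation across these CpGs, which share regions, was 0.84, 0.97 and 0.95.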

How the data were processed

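Mouse embryonic stem cells were measured by amplicon bisulfite sequencing (78 samples) and by SureSelect capture (24 samples). The authors aligned reads to mm9 with Rbowtie in QuasR and called levels with AmpliconBiSeq and qMeth. The authors deposited, per CpG and replicate, amplicon coverage as a count of reads and the methylation level as a fraction, with no level under 100 reads. For SureSelect the authors deposited coverage counts and levels in percent in columns that join 3 replicates, from 50 reads up. The deposited columns of the authors' inferred rates, confidence and TET activity, on a log2 scale, were not used. In all value columns 0 lacked a sample.

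Methylated reads were level times coverage. Amplicon CpGs were tested with a quasi-binomial logistic model (0.5 added to both counts, dispersion moderated with limma 3.58.1 and not below 1, R 4.3.3), with Benjamini-Hochberg adjustment over all amplicon CpGs and a threshold of 0.05. For region means the samples were permuted exactly, two-sided. For SureSelect CpGs, pooled reads went into Fisher's exact test, with adjustment over 2177608 CpGs. Rates were fitted on a grid of 80 by 80 values up to 2 per day, with decay of DNMT3 activity at 0.5 per day, 8% retained alleles, a conversion error of 0.0025 and, for amplicons, a beta-binomial over-dispersion of 0.0055, with a binomial error for SureSelect. The mock trend was divided out of the wild-type Cre levels. Low noise means that the 95% credible ranges of k_me and k_de, combined over replicates as standard errors, were both narrower than 2 log2 units. In addition, every replicate had to have a probability under 0.08 at each edge of the grid. The quasi-binomial comparison of groups, Fisher's exact test and the rate fit were checked on simulated data. The exact permutation test was checked on small made-up cases. The interaction, limma and replicate block models were not checked in this way. Python 3.11.15, numpy 2.4.6 and scipy 1.17.1 were used.

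Within the label rule, these regions as a topic, single CpGs and motifs were chosen with earlier results of these data known. All regions were named by position and gene. Single CpGs were named for the largest and smallest TTKO difference at day 0, relative loss and k_de, and further CpGs after their values were seen. The study calls its replicates biological without saying that they were separate cultures, so p-values measure the spread between these samples. Amplicon reads carry no molecular identifiers. Same-numbered replicates were treated as unpaired, since in no contrast did all 3 correlations of their deviations exceed 0.1. Alternatives were the added count, the dispersion floor, a minimum of 1000 reads (100 for SureSelect), limma on log odds, a replicate block, leaving out each replicate, pooled reads, other bins and flanks, rate settings and, added after the data were seen, leaving out the Zbtb20 region, leaving out Cacng7 from the levels by distance, and the mock comparisons with day 0.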

Additional observations from a re-analysis of the deposited data

Results flagged for a closer look

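By the interaction test, CpGs with a different effect of Cre at day 29 in TTKO and wild-type cells lay in 2 regions. The median log2 odds ratio of TTKO over wild-type cells was -1.677 in the Slx1b region (6 of 20 CpGs called, beside 2.86% of all CpGs) and 1.374 in the Zbtb20 region (2 of 13, beside 3.12%), and 0 CpGs were called without TTKO Cre replicate 1, TTKO Cre replicate 2 or wild-type mock replicate 3. For the change of mock-treated cells from day 0 to day 8, CpGs called different between the lines lay in 5 regions, beside a background of 23.9% of all CpGs. The median log2 odds ratio was -1.082 in Slx1b (5 of 20 CpGs called, a share near the background), -1.705 in Zbtb20 (5 of 13), -1.803 at the Gsx1 side (3 of 4), -1.66 in Cacng7 (4 of 6) and -1.504 in Calhm2 (5 of 11). The total of 22 fell to 11 without TTKO day 0 replicate 1 or 3. Negative values mean a smaller rise, or a larger loss, in TTKO cells.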

How the results depend on the processing

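Of 570 alternative values, 485 stayed within the limits set for them. The limits were a fixed ratio for counts and rates and the SD of the difference for differences of means. Levels by distance had a counting interval or a fixed number of points. Only differences of means could be labelled reversed, and 0 were. None of 164 alternative counts held a call opposite to the calls of the main setting, where it had any. The order of the lines in median k_de and k_me is not among these values and did turn, as given above. With limma on log odds the calls were 0 in TTKO cells at day 8 and 20 at day 13, and 7 and 12 in wild-type cells at days 10 and 13. The replicate block gave 13 calls in TTKO cells at day 8, 14 in wild-type cells at day 10 and 3 for the interaction at day 29. It moved no other count beyond the limit, and the numbers were not shown to pair the samples. In TTKO cells at day 8 the correlations of same-numbered replicates were 0.083, 0.188 and 0.057, and samples of one treatment each correlated best with their own number in the other, a hint from the data. A minimum of 1000 reads gave 1 call, lower than day 0, for TTKO mock cells at day 8 and 14 for the line difference at day 8. Without Zbtb20 25 CpGs were called in wild-type cells at day 29.

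Leaving out 1 replicate gave 46 to 56 calls at day 0, and in TTKO cells 1 to 30 at day 8, 25 to 46 at day 10, 23 to 38 at day 13, 45 to 50 at day 17 and 57 to 60 at day 29. In wild-type cells it gave 21 to 36 at day 8, 10 to 26 at day 10, 18 to 44 at day 13, 32 to 51 at day 17 and 30 to 36 at day 29. The interaction at day 29 ranged from 0 to 16, wild-type mock at day 8 from 51 to 64, TTKO mock at day 8 from 0 to 1 and the line difference at day 8 from 11 to 32. Wild-type rates ranged from 36 to 43 CpGs with low noise, 0.0995 to 0.160 in median k_de and 0.0537 to 0.0674 in median k_me.

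The mean change at day 29 was -25.9 points with pooled reads and -22.4 without Zbtb20 in TTKO cells, and -22.0 and -11.3 in wild-type cells. The difference from the other constitutive LMRs was -16.8 with pooled reads at day 0, and at day 29 in TTKO cells 15.4 with 1000 reads and 9.16 without Zbtb20, where it was 12.7 otherwise. That from NP-specific LMRs at day 29, -1.59 otherwise, was -9.41 with pooled reads, -3.70 with 1000 reads and -5.16 without Zbtb20. The step from inside to the nearest flank, 22.7 points in wild-type and 21.2 in TTKO cells, was 8.05 and 9.53 with 250-base bins, 20.9 and 20.0 with 100 reads and 15.8 and 16.5 without Zbtb20. An over-dispersion of 0.02 left 21 TTKO CpGs (median k_me 0.0712) and 11 wild-type CpGs (median k_de 0.0249, k_me 0.153), no retained alleles gave a wild-type k_de of 0.0647, and a beta-binomial model left 83 SureSelect CpGs. Fewer CpGs or samples enter several of these settings, and the cause of the other shifts was not tested.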
